A study of Mus musculus with 16 samples.

Results

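RNA sequencing of mouse embryoid bodies was used to compare a Wdr5 knockout with wild type across all genes. Embryoid bodies are floating balls of differentiating embryonic stem cells, and these were taken at day 6 of differentiation. The comparison used the 4 columns of the knockout (KO) and the 4 columns of wild type (WT), which are 8 of the 16 samples of the series. The genes described here were chosen from 49 lists of cell functions with 1428 symbols and from rules of size, rather than from lists of lineage markers.

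Both groups carried a GFP reporter knocked in at Rx, the eye field homeobox gene also called Rax. Dissociated stem cells were reaggregated quickly and floated without serum, the method named SFEBq, in GMEM medium with 5% KSR, a serum replacement. Matrigel, a basement membrane extract rich in laminin and collagen IV, was added at 2% on day 1 in every group. WT was untreated. The KO was 1 clone, number 3, without doxycycline, and the series title names a construct for inducible human WDR5 in this background. Differences between this clone and WT other than Wdr5 cannot be told apart from the knockout. The other groups of the series are the same clone with doxycycline given at the times labelled T12h and T48h. Only the T12h rescue is quoted below, as levels beside the others, and it is compared with the same WT libraries.

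Wdr5 is a WD40-repeat protein that holds together the core of the MLL/SET1 (COMPASS) complexes, which methylate lysine 4 of histone H3, a mark of active promoters. It is also a subunit of the NSL and ATAC acetyltransferase complexes. In embryonic stem cells Wdr5 is known for its part in self-renewal, and in SFEBq culture aggregates take on an anterior neural and eye field identity.

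Column names carry no run or duplicate number. In every group the 4 columns formed 2 pairs that were close to sampling noise, with a mean chi-square per degree of freedom of 1.6 to 1.83 against 9.07 to 16.5 between pairs over all groups. Each pair was summed and counted as 1 library, so n = 2 per group, with library a and library b as names only. Named genes took 34730076 and 32476672 estimated fragments in the WT libraries, and 65687435 and 35685689 in those of the KO. The design text calls the duplicates biological but does not say that they came from separate cultures, so p-values measure only the spread between these libraries. Levels are CPM, the counts scaled to a library of fixed size, paired values are libraries a and b in that order, and log2 fold changes are KO minus WT ± SE from edgeR's quasi-likelihood test. Levels in CPM are not corrected for gene length, so they are compared between groups. Where a gene was picked as the highest of a set, the pick was by CPM and depends on length too.

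The targeted gene was measured first. Wdr5 (chromosome 2, 27515146 to 27536538 on mm10) stood at 185.7 and 186.5 CPM in WT and 32.5 and 28.4 CPM in the KO (-2.61 ± 0.08 on the log2 scale, with an edgeR adjusted p of 2.74e-11). Both KO libraries lay below both WT libraries. The remaining signal cannot be split between transcripts of the edited locus and of the uninduced human construct, because the tables hold 1 value per gene. The eye field gene Rax was near 0 in the KO, at 0.82 and 0.755 CPM against 192 and 197 CPM in WT. Pax6, of the eye field and forebrain, did the same, at 1.3 and 0.728 CPM against 333 and 289 CPM. Pou5f1, a gene of pluripotent cells, went the other way, from 22 and 21.4 CPM to 228 and 234 CPM. Perp, a p53 target and a component of desmosomes, rose with it, from 7.99 and 9.08 CPM to 199 and 191 CPM.

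The knockout differed from WT in most genes, and about as many were higher as lower. Of 16130 genes tested, 10337 passed at an adjusted p under 0.05 (64.1%), 5117 of them higher in the KO (31.7%) and 5220 lower (32.4%). Changes of at least 2-fold were found in 2889 higher genes (17.9%) and 2525 lower genes (15.7%). These shares are the background for every list below. Where a change beyond 1.5-fold is asked for, the background is 3042 higher and 2872 lower of the same 16130 genes. Changes of at least 16-fold were more often increases, with 554 higher and 303 lower genes, and at 64-fold the counts were 191 and 100. Genes that stayed put can be shown only where the SE is small, and its median was 1.06 for genes with a mean under 1 CPM. The following is therefore not a count of all unchanged genes. In all, 850 genes (5.27%) had a 95% interval of the log2 fold change within 0.3 of 0. Among them, the 5 of highest level were the chaperone gene Hsp90ab1, the elongation factor gene Eef1a1, the ribosomal protein gene Rpl4, the glucose transporter gene Slc2a3 and the splicing cofactor gene Srrm2. Hsp90ab1 stood at 5114 and 4635 CPM in WT and 4613 and 4757 CPM in the KO.

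**Figure D1:**
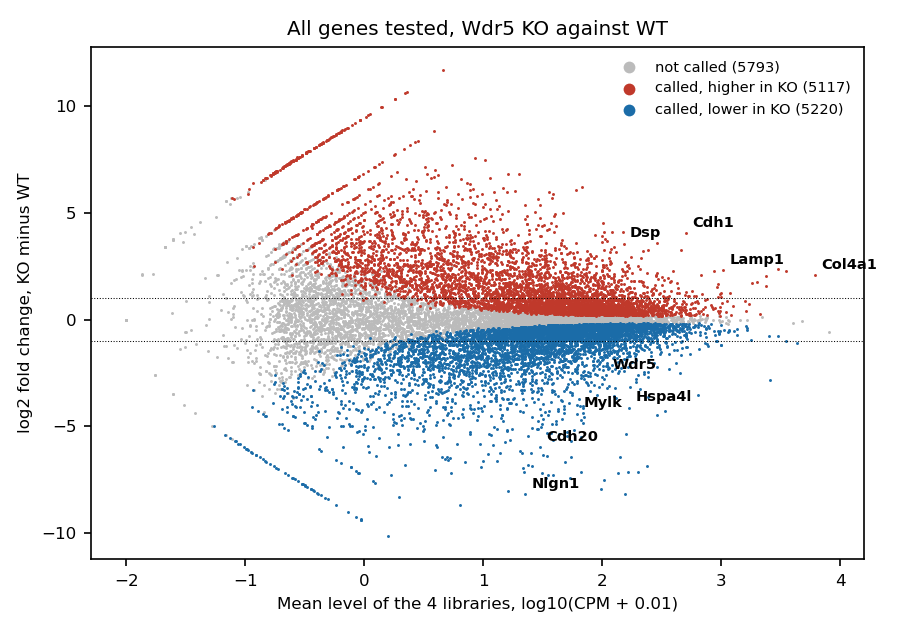
Each point is 1 of 16130 genes; the horizontal axis is the mean level of the 2 WT and 2 KO libraries as log10(CPM + 0.01) and the vertical axis the log2 fold change, KO minus WT, with dotted lines at 2-fold. Red points (5117) were called higher, blue points (5220) lower and grey points were not called; the diagonal rows at the left are genes with 0 or few counts in 1 group.

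The 10 largest increases among abundant genes, those of at least 100 CPM in the higher group, held no transcription factor. Vnn1, a pantetheinase, rose from 1.97 and 1.63 CPM in WT to 128 and 139 CPM in the KO (log2 fold change 6.21 ± 0.15). S100g, a calcium-binding protein of absorptive epithelia, went from 1.14 and 2.43 CPM to 118 and 119.9 CPM. The others were Perp, Myof (a membrane-repair ferlin), Trh (thyrotropin-releasing hormone), St14 (the serine protease matriptase), Cdh1 (E-cadherin), Tdh (threonine dehydrogenase, an enzyme that mouse embryonic stem cells depend on), Tex15 (a germ cell gene) and Aqp8 (a water channel), with log2 fold changes of 3.79 to 4.51. The 10 largest decreases, from -6.45 to -8.16, included Pax6, Rax, Six6, Six3, Six3os1, Lhx2, Aldh1a3, Irs4 and Maob. The first 6 of these are genes of forebrain and eye regulators or, in Six3os1, a transcript next to one. Aldh1a3 makes retinoic acid, Irs4 is an insulin receptor substrate and Maob a monoamine oxidase: Irs4 fell from 468 and 478 CPM to 3.79 and 4.61 CPM.

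Some genes had no count in at least 1 group. The floor was 3 counts over a group (0.043 CPM in WT, 0.0285 CPM in the KO). At 0 in both WT libraries were 166 tested genes, and a few of these, such as Pmch and Hoxd3, were at 0 in the KO too. Another 61 had counts in WT and were at 0 in both KO libraries. Clca3, a secreted goblet cell protein gene, was at least 217-fold higher in the KO, and the cadherin gene Fat2 at least 103-fold higher. In the other direction the lectin gene Clec18a was at least 110-fold lower, and the tachykinin gene Tac1 at least 64.5-fold lower. These folds cover counting error only.

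Markers of other cells that such aggregates can hold moved with the comparison, and these lists were added after the data had been seen. The summed level of 15 extraembryonic endoderm markers was 1765 and 1862 CPM in WT and 5321 and 5364 CPM in the KO, with 12 of 15 members higher and 2 lower. Sparc, a matrix protein gene that other cells express too, made up most of these sums. The other 14 markers summed to 620.5 and 615 CPM in WT and 1744 and 1776 CPM in the KO. The 2 lower markers were Apoa1 and Afp, with Afp at 43.27 and 41.88 CPM in WT and 11.85 and 7.69 CPM in the KO. Markers of undifferentiated cells summed to 219.8 and 241.2 CPM in WT and 752 and 761 CPM in the KO, and all 10 were called higher. Of 8 markers of surface ectoderm 6 were higher and 0 lower, with sums of 15.9 and 13.5 CPM against 122 and 116 CPM, while Trp63 stayed under 1 CPM in every library. Trophoblast markers had 6 of 9 tested members higher and 0 lower, and sums of 21.02 and 20.2 CPM against 134 and 134.1 CPM. Fibroblast (feeder) markers summed to 105 and 98.7 CPM in WT and 74.1 and 70.1 CPM in the KO, with 3 of 13 tested members higher and 5 lower, and Dcn and Lum were under 1 CPM in all 4 libraries. In these bulk samples fewer cells of a type and less RNA per cell cannot be told apart, and the part of such cells in the results below was not tested.

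Among adhesion genes, cadherins of neural tissue fell and E-cadherin and desmosome genes rose. Cdh1, the cadherin of epithelia and of pluripotent cells, stood at 62.7 and 54.8 CPM in WT and 958 and 961 CPM in the KO (4.03 ± 0.12 on the log2 scale, with an edgeR adjusted p of 1.79e-11). Its level in the T12h rescue was 57.5 and 73.3 CPM, next to WT. Cdh3, P-cadherin, rose too, by 3.31 ± 0.15. Cdh2, the N-cadherin of neuroepithelium, ran opposite, at 325 and 294 CPM in WT and 36.1 and 33.4 CPM in the KO. Cdh6, Cdh11 and Cdh20, classical cadherins of neural and mesenchymal tissue, fell with Cdh2. Cdh11 stood at 528 and 575 CPM in the T12h rescue, above both WT libraries, which held 207 and 190.2 CPM. Cdh20 was nearly lost, from 60.5 and 57 CPM to 1.05 and 0.782 CPM, while Cdh11 fell by 3.21 (SE 0.10). The list of classical cadherins and catenins had 4 of 24 tested members higher and 12 lower, with a median log2 fold change of -1.39 against 0.00 for all genes. The others that rose were Cdh5, the cadherin of endothelium, and Ctnnd1, p120-catenin. Of these members 7 lie on chromosome 8, which stands apart as described below, and without them 1 of 17 was higher and 9 were lower. Ctnnb1, the beta-catenin that these cadherins bind, fell by only 0.29, from 1708 and 1818 CPM to 1470 and 1408 CPM.

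Desmosomes, the junctions that anchor keratin filaments, rose as a set. Of 24 tested desmosome and keratin genes 21 were higher, every one of them by at least 2-fold, and 1 was lower, with a median of 2.93. None of these genes lies on chromosome 8. The plaque protein gene Dsp stood at 27.1 and 20.5 CPM in WT and 267 and 289 CPM in the KO (log2 fold change 3.54 ± 0.13, edgeR adjusted p = 8.5e-11), and Jup, plakoglobin, at 28.2 and 30.4 CPM against 176 and 172 CPM. Krt8 and Krt18, partner keratins of simple epithelia, rose by 2.75 ± 0.10 and 1.81 ± 0.08. Keratins share sequence with pseudogenes, so their counts are less certain. Pkp4, a plakophilin relative of adherens junctions, was the member that fell (-0.65). Another 4 members of the list were too low to test. The surface ectoderm sums above moved the same way as these keratins, and their part was not tested.

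Tight junction and gap junction genes were more often higher than lower. Of 27 tested members 13 were higher and 2 lower (5 lower without KO library a), with 8 members too low to test, and the median was 0.86. F11r, a junctional adhesion molecule, stood at 31.4 and 32.2 CPM in WT and 179.7 and 167 CPM in the KO, and Cldn6, a claudin of embryonic epithelia, at 48.4 and 53.8 CPM against 240.2 and 258 CPM. Gjc1, connexin 45, fell from 109 and 96.4 CPM to 19.6 and 18.2 CPM, whereas Gja1, connexin 43, was not called at 610.1 and 554 CPM against 579.7 and 611 CPM. Regulators of alternative splicing split. Esrp1 and Esrp2, which direct epithelial exon choice, rose by 2.85 ± 0.14 and 4.46 ± 0.21, while Khdrbs3, Nova1, Celf2 and Ptbp2, which act in neural splicing, had log2 fold changes of -3.52, -3.35, -2.13 and -1.59. In all 11 of 29 splicing regulators were higher and 12 lower. Zeb1, a repressor of epithelial genes named here after its values were seen, stood at 126 and 110.5 CPM in WT and 8.42 and 9.98 CPM in the KO.

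**Figure D2:**
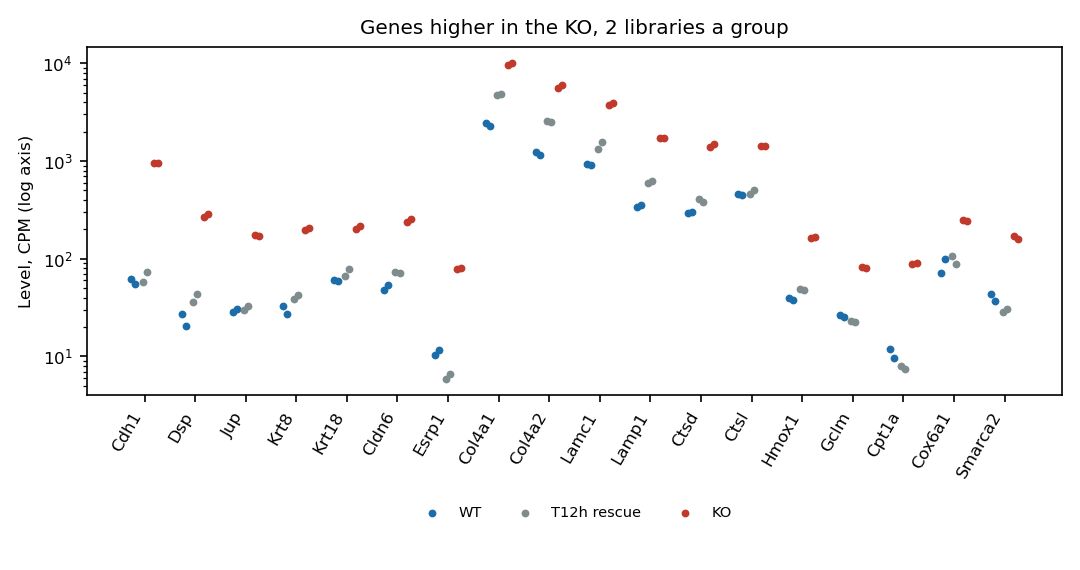
Levels in CPM on a log axis, 1 dot per library, of 18 genes called higher in the KO; blue is WT, grey the T12h rescue and red the KO, 2 libraries each. The KO dots lie above both WT dots for every gene. For several genes, among them Col4a1, Col4a2, Lamp1, Lamc1, Ctsd and Hmox1, the T12h dots lie between WT and the KO.

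Basement membrane genes rose. Of 23 tested basement membrane genes 17 were higher, 15 of them by at least 2-fold, and 2 were lower, with a median of 1.76. Without the 2 members on chromosome 8 the counts were 15 and 2 of 21. Lamc1, the gamma subunit of most laminins, stood at 936 and 910.2 CPM in WT, 3751 and 3928 CPM in the KO and 1339 and 1554 CPM in the T12h rescue. The main collagen IV chains rose together: Col4a1 stood at 2427 and 2266 CPM in WT and 9670 and 10140 CPM in the KO, and Col4a2 at 1234 and 1159 CPM against 5637 and 5978 CPM. The tissue-restricted chains Col4a5 and Col4a6, which form another gene pair on chromosome X, fell by 2.87 and 3.61 on the log2 scale. Most markers of extraembryonic endoderm, cells that lay down basement membrane, were higher beside these genes, though Afp and Apoa1 were lower. Their sums without Sparc were 620.5 and 615 CPM in WT and 1744 and 1776 CPM in the KO. The part of such cells was not tested.

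Col4a1 and Col4a2 lie head to head on chromosome 8. Their RefSeq promoter windows (GRCm38.p6, 250 bases before to 50 after each start) overlap, with starts 21 bases apart, and are shown because the genes with this shared region moved together. Capitals mark the 78 bases (chr8:11312777-11312854) that both windows hold, each read 5′ to 3′ on its own gene's strand. The Col4a1 window is chr8:11312777-11313076 on the minus strand and the Col4a2 window chr8:11312555-11312854 on the plus strand. G and C make up 74.0% and 73.7% of their bases.
Col4a1: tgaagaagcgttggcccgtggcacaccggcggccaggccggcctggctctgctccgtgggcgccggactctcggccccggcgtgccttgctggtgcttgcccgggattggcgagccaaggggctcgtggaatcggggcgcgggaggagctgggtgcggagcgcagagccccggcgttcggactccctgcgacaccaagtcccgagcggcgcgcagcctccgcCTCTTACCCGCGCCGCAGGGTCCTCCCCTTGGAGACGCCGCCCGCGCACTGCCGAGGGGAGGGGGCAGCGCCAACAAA
Col4a2: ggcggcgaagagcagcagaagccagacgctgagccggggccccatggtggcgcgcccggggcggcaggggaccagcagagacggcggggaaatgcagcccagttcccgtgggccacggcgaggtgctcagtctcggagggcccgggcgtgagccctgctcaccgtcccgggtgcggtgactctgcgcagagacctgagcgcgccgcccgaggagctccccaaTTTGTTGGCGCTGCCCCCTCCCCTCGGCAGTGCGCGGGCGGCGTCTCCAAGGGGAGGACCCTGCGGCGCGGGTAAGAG

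The collagen pair rose by 2.08 ± 0.07 and 2.28 ± 0.08 on the log2 scale (edgeR adjusted p = 8.69e-11 and 4.55e-11). In the T12h rescue Col4a1 stood at 4725 and 4887 CPM and Col4a2 at 2574 and 2500 CPM, between WT and the KO. Interstitial collagens lay on both sides, with 6 of 21 higher and 8 lower. The fibrillar chain Col11a1 fell from 78.7 and 70.7 CPM to 1.22 and 1.89 CPM. Col9a1, which associates with such fibrils in cartilage and vitreous, fell from 69.98 and 63.9 CPM to 0.527 and 0.162 CPM. Col1a2 fell by 3.38 on the log2 scale, and Col14a1 rose but stayed under 2 CPM in both KO libraries. With WT library a or b left out, 3 of these collagens, not 6, were called higher.

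Receptors and enzymes that act on the matrix followed in part. Integrins had 13 of 23 members higher and 1 lower, or 2 lower without KO library a. Itgb5, a vitronectin receptor chain, rose from 22.9 and 23.9 CPM to 91.4 and 83.2 CPM, and Itgb1, the common beta chain of laminin and collagen receptors, from 350 and 315 CPM to 621 and 600.1 CPM. Itgb8, an activator of latent TGF-beta, was the one that fell (-1.82). Matrix proteases and their inhibitors were mixed, with 17 higher and 11 lower of 35. The protease inhibitor gene Serpine2 stood at 93.4 and 97.1 CPM in WT and 333 and 329 CPM in the KO, and Serpinh1, the collagen chaperone, at 630.1 and 592 CPM against 1287 and 1274 CPM. Timp2 fell by 1.81 and Timp3 rose by 1.21 on the log2 scale.

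Annexins and S100 proteins, which bind calcium and membranes, rose nearly as a set. Of 19 tested members 17 were higher, all by at least 2-fold, and 1 was lower, with a median of 2.29, and 8 members were too low to test. Anxa8 rose from 1.17 and 1.1 CPM to 58.1 and 55.6 CPM. Anxa2 stood at 51.4 and 51.4 CPM in WT and 139.7 and 149.6 CPM in the KO. S100a10, its partner in a complex at the plasma membrane, stood at 16.1 and 15.8 CPM against 99.4 and 95.9 CPM. Both KO libraries were above both WT libraries for each of these. S100pbp, an S100-binding protein, was the member that fell, by 0.23, and that call was lost under 6 of the alternatives, among them those without WT library b or KO library b.

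**Figure D3:**
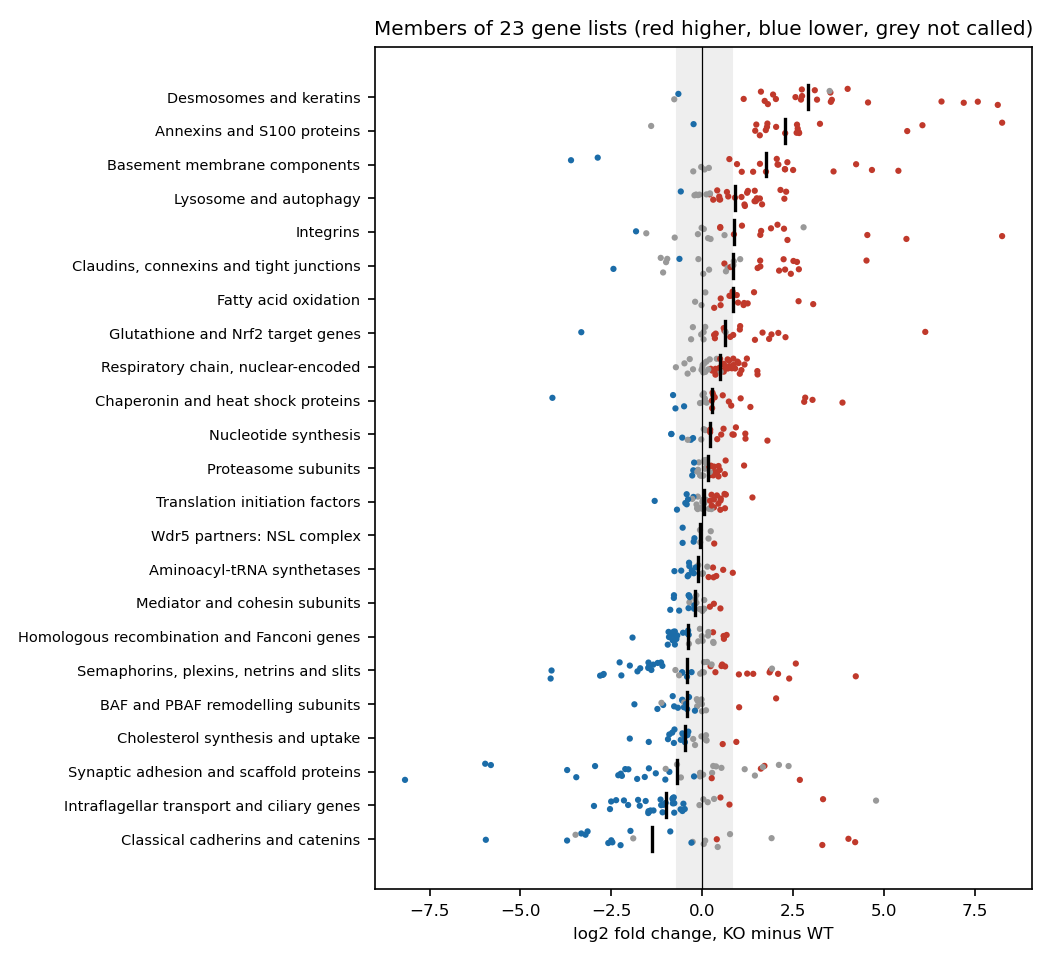
Each point is a tested member of 1 of 23 gene lists, placed by its log2 fold change, KO minus WT (red called higher, blue called lower, grey not called); black bars are list medians, and the grey band and line are the middle 50% and the median of all 16130 genes. Desmosome and keratin genes have the highest median (2.93) and classical cadherins and catenins the lowest (-1.39).

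Lysosomal genes rose broadly. Of 31 tested members 24 were higher, 15 of them by at least 2-fold, and 1 was lower, with a median of 0.91. Lamp1, the main lysosomal membrane glycoprotein gene, stood at 341 and 354 CPM in WT and 1726 and 1730 CPM in the KO (log2 fold change 2.31 ± 0.07, edgeR adjusted p = 2.49e-11). The acid proteases Ctsd, Ctsl and Ctsb followed, Ctsd from 297 and 299.8 CPM to 1384 and 1486 CPM. Ctsl and Ctsb rose by 1.65 ± 0.07 and 1.59 ± 0.08. Gabarapl1, an autophagosome protein gene, was the one member that fell (-0.59). Without the 4 members on chromosome 8, Lamp1 among them, 20 of 27 were higher and the median was 0.68. In the T12h rescue Lamp1 stood at 602 and 627 CPM and Ctsd at 407 and 384 CPM.

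Many lysosomal genes carry the E-box CACGTG, the core of the element to which TFEB family factors bind. The windows of Lamp1 and Ctsd are shown as the 2 called members with the smallest adjusted p that hold it, with each match in capitals. Lamp1 (chr8:13158911-13159210, plus strand) has 4 matches and Ctsd (chr7:142387778-142388077, minus strand) has 2.
Lamp1: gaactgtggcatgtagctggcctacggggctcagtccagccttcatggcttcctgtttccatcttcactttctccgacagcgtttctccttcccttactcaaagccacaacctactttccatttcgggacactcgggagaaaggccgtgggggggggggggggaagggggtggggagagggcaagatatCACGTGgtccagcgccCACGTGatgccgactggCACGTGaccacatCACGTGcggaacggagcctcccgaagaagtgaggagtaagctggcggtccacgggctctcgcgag
Ctsd: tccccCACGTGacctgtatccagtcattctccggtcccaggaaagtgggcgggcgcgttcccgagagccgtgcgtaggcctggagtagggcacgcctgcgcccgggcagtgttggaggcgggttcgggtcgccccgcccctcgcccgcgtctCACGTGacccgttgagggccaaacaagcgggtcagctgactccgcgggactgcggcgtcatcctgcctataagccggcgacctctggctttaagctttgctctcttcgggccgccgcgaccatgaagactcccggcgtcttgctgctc

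Of 28 RefSeq windows of 23 matched lysosomal members, 9 held CACGTG on either strand (32.1%), against 9.41% of all 14460 windows of tested genes. Among members called higher, 7 of 17 with a window held it, and among members not called 2 of 5. A match is a description of the sequence only. Tfeb itself, named after its values were seen, stood at 6.02 and 5.61 CPM in WT and 25.1 and 26.9 CPM in the KO (log2 fold change 2.16 ± 0.21).

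Genes of glutathione synthesis and of the Nrf2 response rose as well, with 16 of 24 higher and 1 lower (median 0.63), or 2 lower without KO library b. The haem oxygenase gene Hmox1 stood at 39.4 and 37.7 CPM in WT and 164 and 166 CPM in the KO, and Gclm, which with Gclc makes the first enzyme of glutathione synthesis, at 26.6 and 25.1 CPM against 83.2 and 80.7 CPM. Gss, the second enzyme, and the malic enzyme Me1 rose by 1.84 ± 0.12 and 1.46 ± 0.10. Gstm5, a glutathione transferase of brain, fell sharply, from 81.8 and 90.4 CPM to 8.8 and 8.34 CPM. Without the 4 members on chromosome 8, which include Hmox1, 12 of 20 were higher and the median was 0.49. The antioxidant response core TGACNNNGC, on either strand, was in 8 of 29 windows of this list (27.6%) against 14.1% of all windows. Among members with a window, 4 of 12 called higher, 1 of 1 called lower and 3 of 7 not called held it. Nfe2l2, which encodes Nrf2 and was named after its values were seen, stood at 41.4 and 39.3 CPM in WT and 81.4 and 85.5 CPM in the KO.

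Transcripts of fatty acid oxidation and respiratory chain genes rose in most cases. Of 17 tested genes of fatty acid oxidation 14 were higher and 0 lower (median 0.84). Cpt1a, the carnitine palmitoyltransferase that admits fatty acids to mitochondria, stood at 11.8 and 9.73 CPM in WT and 89.1 and 90.7 CPM in the KO, and Eci1, an enoyl-CoA isomerase, at 6.88 and 6.14 CPM against 40.9 and 41.3 CPM. The T12h rescue had 8.01 and 7.42 CPM of Cpt1a, below both WT libraries, and 7.51 and 5.93 CPM of Eci1. Of 45 nuclear-encoded subunits of the respiratory chain 29 were higher and 0 lower, though by smaller steps, with a median of 0.50. Over the alternatives 0 to 2 of these subunits were lower. Cox6a1, a subunit of cytochrome oxidase, rose from 72.1 and 99.8 CPM to 250.5 and 245 CPM, and Cyc1, cytochrome c1, from 114 and 132 CPM to 256 and 248 CPM. When a change beyond 1.5-fold was asked for, 13 of the 45 were called higher.

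Cholesterol genes fell and the other biosynthetic lists were split. In cholesterol synthesis and uptake 14 of 23 genes were lower and 2 higher (median -0.47). Nsdhl, a sterol dehydrogenase, fell from 51 and 49.95 CPM to 19.7 and 16.7 CPM, and Hmgcs1, the synthase at the head of the pathway, from 552 and 502 CPM to 367 and 335 CPM. Ebp, a sterol isomerase late in the pathway, rose by 0.94. The sterol response element TCACNCCAC, on either strand, was in 1 of 17 windows of this list (5.88%), that of Hmgcs1, against 1.25% of all windows. Nucleotide synthesis leaned the other way, with 11 of 20 higher and 5 lower. Cad, the enzyme that starts pyrimidine synthesis, stood at 408 and 436 CPM in WT and 937 and 988 CPM in the KO, while Rrm1, the large subunit of ribonucleotide reductase, fell by 0.85. One-carbon metabolism was split, 6 higher and 8 lower of 19. The mitochondrial enzymes Shmt2 and Mthfd2 fell by 1.01 and 1.46 on the log2 scale, and the cytosolic enzymes Mthfd1 and Aldh1l1 rose by 1.22 and 2.95. Amino acid transporters had 13 of 26 higher and 6 lower, with Slc7a7 up by 2.24 and the glial glutamate transporter Slc1a2 at -2.93.

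Genes of protein folding and turnover changed by small steps, with a few large exceptions. Of 24 chaperonin and heat shock genes 14 were higher and 4 lower. The small heat shock gene Hspb1 rose from 6.6 and 8.93 CPM to 61.7 and 66 CPM, and Hspb8 from 8.4 and 7.83 CPM to 56.1 and 57.9 CPM. Hspa4l, an Hsp110 family chaperone, fell from 315 and 322 CPM to 19.6 and 16.8 CPM, and Cct7, a subunit of the cytosolic chaperonin, from 574 and 576 CPM to 336 and 325 CPM. Of 30 proteasome subunits 14 were higher and 3 lower (1 lower with KO library a or b left out), with a median of 0.16, and with a change beyond 1.5-fold asked for only Psmb4 among those higher remained, at 148 and 176 CPM against 362 and 360 CPM. ER chaperones and unfolded protein response genes had 11 of 21 higher and 2 lower. Calr and Herpud1, 2 of the called members of this list, lie on chromosome 8, and Hsp90b1 was not called, at 1189 and 1098 CPM against 1043 and 1028 CPM. The short motif CCACG, the end of the ER stress element, was in 15 of 18 windows of the ER list (83.3%) against 45.4% of all windows, and in those of all 6 members that were not called.

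Aminoacyl-tRNA synthetases, which charge tRNAs, had 6 of 19 higher and 9 lower, or 3 higher without WT library b. The composite core TGATGNAA of CHOP and ATF sites, on either strand, was in 4 of 11 windows of this list (36.4%) against 2.32% of all windows, 2 of them of members called lower and 2 of members not called. Initiation factors had 14 of 35 higher and 7 lower. With a change beyond 1.5-fold asked for, 1 gene in each direction was called in either list. Eif4g3, a scaffold of the cap-binding complex, fell by 1.3, and Eif4ebp1, an inhibitor of cap-dependent initiation, rose by 1.39.

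Cilia genes fell as a group. Of 37 tested genes of intraflagellar transport and the cilium 29 were lower, 19 of them by at least 2-fold, and 3 were higher, with a median of -1.004. Bbs1, a subunit of the BBSome that moves membrane proteins in and out of cilia, stood at 25.5 and 24.4 CPM in WT and 2.88 and 3.51 CPM in the KO (log2 fold change -2.98 ± 0.17, edgeR adjusted p = 8.48e-09). The transport subunit genes Ift57 and Ift140 and Rfx3, a transcription factor of ciliary genes, fell by 2.04, 1.48 and 1.72 on the log2 scale. In the T12h rescue Bbs1 stood at 27.3 and 25.8 CPM. Rfx3 there was at 125 and 124 CPM, within the WT range of 119 and 126 CPM. Foxj1, a regulator of motile cilia, rose from 1.36 and 1.72 CPM to 14.8 and 16.2 CPM. Without the 2 members on chromosome 8, 28 of 35 were lower.

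Related families were read by the stems of gene symbols, which were looked at with no list in mind and are given with no test. Among 49 stems with at least 25 tested genes, those named Kif, the kinesin motors, had 25 of 37 lower and 4 higher. Kif3a, a motor of intraflagellar transport, stood at 102 and 91.4 CPM in WT and 31.3 and 25.4 CPM in the KO. Those named Cep, the centrosomal proteins, had 21 of 30 lower and 3 higher. Zinc finger genes named Zfp had 186 of 316 lower and 40 higher, with a median of -0.53. Zfp503, a repressor in the forebrain, fell from 103 and 94.5 CPM to 2.69 and 2.46 CPM, and Zfp618 from 73 and 73.6 CPM to 2.69 and 2.19 CPM. Kif3a, Zfp503 and Zfp618 were picked after their values were seen.

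Histone genes fell or were not called. Of 53 tested genes named Hist, 35 were lower, each by at least 2-fold, and 0 were higher, with a median of -1.60. Their summed level was 518 and 379 CPM in WT and 107 and 235 CPM in the KO. Both KO libraries lay below both WT libraries, but the sum of KO library b was over 2 times that of library a. Hist1h1a, a linker histone gene picked after its values were seen, stood at 49.1 and 37.1 CPM in WT and 8.54 and 27.1 CPM in the KO. The histone sum in the T12h rescue was 272.5 and 186 CPM, also below WT. These transcripts mostly lack poly(A) tails, near-identical copies share reads, and the selection used in making the libraries is not given in the sources used here.

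**Figure D4:**
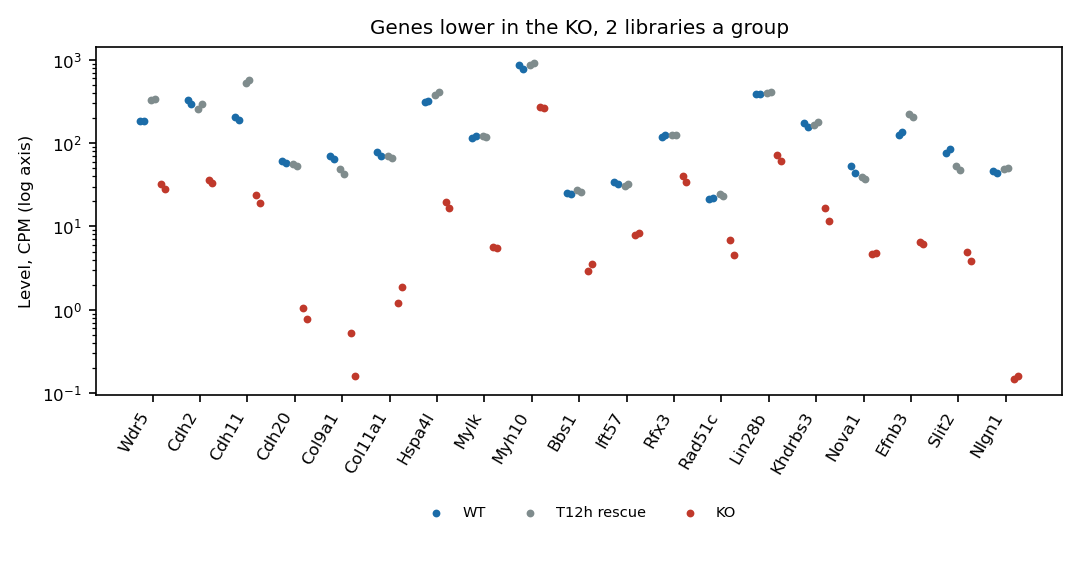
Levels in CPM on a log axis, 1 dot per library, of 19 genes called lower in the KO; blue is WT, grey the T12h rescue and red the KO, 2 libraries each. The KO dots lie below both WT dots for every gene, and Nlgn1 is under 0.2 CPM in both KO libraries.

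Genes of genome maintenance fell by modest amounts. Of 30 tested homologous recombination and Fanconi genes 17 were lower and 4 higher (median -0.39), or 2 higher without WT library a. Rad51c, a mediator of strand exchange, fell from 21.4 and 21.7 CPM to 6.78 and 4.5 CPM and was the one member past 2-fold. Brca1 stood at 158 and 148 CPM in WT and 93.5 and 88.3 CPM in the KO, and the helicase gene Blm at 146 and 141 CPM against 82.1 and 79 CPM. Atm, the kinase that signals double-strand breaks, was not called, at 185 and 204 CPM against 203 and 184 CPM. With a change beyond 1.5-fold asked for, 8 of the 17 were called.

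Subunits of the other complexes that hold Wdr5 differed by small steps. Of 9 NSL subunits 1 was higher and 4 were lower, none by 2-fold. With a change beyond 1.5-fold asked for 0 were called, and without KO library a, or with RLE scaling, 2 were lower. Hcfc1, the subunit shared with the SET1 complexes, stood at 513 and 483 CPM in WT and 428 and 433 CPM in the KO, a call lost under 6 of the alternatives. Kansl1, the NSL scaffold, stood at 146 and 143 CPM against 183 and 181 CPM. The ATAC complex had 3 of 9 higher and 3 lower, the largest change being Mbip, its scaffold protein gene, at -0.92. With a change beyond 1.5-fold asked for, Mbip alone was called. Of 6 H3K4 demethylases, which remove the mark, Kdm5c rose by 0.20, a call lost when any 1 of the WT or KO libraries was left out, and Kdm5d, on the Y chromosome, fell from 6.27 and 4.75 CPM to 1.46 and 1.62 CPM.

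BAF remodeller subunits fell more often than they rose. Of 24 tested BAF and PBAF genes 13 were lower and 2 higher (median -0.43). The alternative ATPases of the complex moved in opposite directions: Smarca2 (Brm) rose from 43.7 and 37.2 CPM to 172 and 160.1 CPM, and Smarca4 (Brg1) fell from 577 and 528 CPM to 372 and 386 CPM. Smarcd2, a subunit that alternates with its paralogs, rose by 1.02, and Ss18l1, the subunit of neuronal BAF, fell by 1.86. Deacetylases and NuRD subunits had 6 of 23 higher and 9 lower. Hdac7, a class IIa deacetylase, fell from 44.6 and 47 CPM to 8.86 and 6.56 CPM. Hdac11 fell from 26.3 and 26 CPM to 6.41 and 7.37 CPM, and Rbbp7, a histone chaperone of several complexes, rose by 0.95. Mediator and cohesin had 10 of 23 lower and 3 higher, none past 2-fold, and 1 higher with WT library a, WT library b or KO library a left out. Rad21 and Smc1a, of the cohesin ring, fell by 0.78 and 0.77.

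Small RNA genes were lower in 9 of 12 tested cases and higher in 1. Lin28b, which blocks let-7 maturation, fell from 387 and 384 CPM to 71.2 and 61.4 CPM, a difference of -2.54 ± 0.08 on the log2 scale with an edgeR adjusted p of 3.07e-11. Its paralog Lin28a fell less, from 917 and 869.5 CPM to 568 and 574 CPM, and Dicer1 from 323 and 333 CPM to 223 and 216 CPM. Tarbp2, the partner of Dicer, was the member that rose (0.90).

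The genes of neuronal function were not uniformly lower. Synaptic adhesion and scaffold genes had 18 of 37 lower and 4 higher, or 2 higher with WT library b or KO library b left out. Nlgn1, neuroligin 1, was nearly lost, at 46 and 43.7 CPM in WT and 0.146 and 0.162 CPM in the KO, and its paralog Nlgn2 stood at 142 and 136 CPM against 32.2 and 32.1 CPM. Synaptic vesicle genes had 14 of 42 lower, close to the share of all genes, and 8 higher. Syt1, the calcium sensor of neuronal release, fell from 26.6 and 28.5 CPM to 1.25 and 1.21 CPM. Stx3, a syntaxin of apical exocytosis in epithelia, rose from 35.4 and 33.6 CPM to 185 and 186 CPM. Vamp8, a vesicle fusion protein of secretory cells, rose from 10.3 and 12.1 CPM to 47.5 and 52.9 CPM.

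Channels and receptors split nearly evenly, as all genes did. The potassium channel shares were close to those of all genes (31.7% higher, 32.4% lower). Potassium channels had 19 of 57 higher and 17 lower, or 12 higher with WT library a or b left out. Kcnj15 rose from 0.194 and 0.0297 CPM to 20.1 and 20.7 CPM while Kcnj12, another inward rectifier, fell from 48.1 and 49.4 CPM to 2.15 and 1.97 CPM. Sodium and calcium channels had 11 of 31 higher and 13 lower. The calcium channel genes Cacna1e and Cacna1b rose by 5.26 and 3.07. Receptors for glutamate, GABA and glycine had 7 of 31 higher and 9 lower, or 4 higher without WT library a. Within the kainate receptors Grik2 fell from 27.5 and 26.7 CPM to 0.483 and 0.162 CPM and Grik3 rose from 23.6 and 19.7 CPM to 94.4 and 79.5 CPM.

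Among guidance genes, semaphorins, plexins, netrins and slits had 22 of 45 lower and 14 higher. Slit2, a repellent ligand, fell from 76.6 and 84.6 CPM to 4.92 and 3.88 CPM, and the netrin receptor gene Dcc from 19.2 and 16.9 CPM to 1.26 and 0.728 CPM. Plxna1, a semaphorin receptor, rose from 263 and 259.8 CPM to 619 and 616 CPM. Dcc was low in the T12h rescue too, at 3.79 and 4.21 CPM. Eph receptors and ephrins had 10 of 21 lower and 8 higher, with Efnb3 at 126 and 136 CPM in WT and 6.54 and 6.12 CPM in the KO, and its family member Efnb1 up by 1.16.

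Cytoskeletal paralogs moved in opposite directions. Of 32 actin and contractile genes 17 were higher and 11 lower. Myh9, the non-muscle myosin heavy chain of most tissues, rose from 353 and 329 CPM to 715 and 749.5 CPM, and Myh10, its paralog common in neural tissue, fell from 872 and 779 CPM to 272 and 265 CPM. Mylk, myosin light chain kinase, fell from 114 and 120.4 CPM to 5.59 and 5.5 CPM. Tubulins and microtubule-associated genes had 10 of 27 higher and 11 lower. Tubb4a, a neural tubulin, fell by 2.77 and Tubb6 rose by 0.73, though tubulin genes share sequence and their reads may be split among copies.

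Signalling genes moved in both directions. Of 35 MAPK feedback and immediate early genes 21 were higher and 7 lower. Dusp9, a phosphatase of ERK, stood at 42.5 and 44.5 CPM in WT and 389.6 and 404 CPM in the KO, and Etv5, a transcription factor downstream of FGF, at 29.2 and 29.5 CPM against 119 and 116 CPM. Myc and the feedback inhibitor gene Spry1 fell by 1.14 and 1.42. Growth factor receptor kinases had 18 of 36 higher and 13 lower, with Ptk7, a receptor of planar polarity, up by 1.80 and Ntrk2, the BDNF receptor, at -3.67. Pdgfra, which is also one of the endoderm markers above, rose from 112 and 106 CPM to 314 and 348 CPM. Nuclear receptors had 20 of 41 higher and 14 lower. Nr3c1, the glucocorticoid receptor, rose from 8.57 and 8.4 CPM to 56.8 and 58.9 CPM, while Nr2f1, an orphan receptor of the forebrain, fell from 129 and 131 CPM to 3.09 and 2.51 CPM.

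Hippo pathway genes and Yap targets had 12 of 29 higher and 7 lower. Yap1 itself was not called, at 340.3 and 316 CPM against 324 and 319 CPM, and its targets Ctgf and Cyr61 rose by 1.49 ± 0.08 and 1.13 ± 0.08. The partner factors split, Tead4 at 1.84 and Tead2 at -1.29. Secreted growth factors outside FGF, Wnt and BMP had 11 of 38 higher and 8 lower. Ptn, pleiotrophin, fell from 278 and 237 CPM to 50.5 and 45 CPM, and its relative Mdk, midkine, from 361 and 430 CPM to 90.9 and 109 CPM. Kitl, the ligand of Kit on germ cells, rose from 8.02 and 11.1 CPM to 51.1 and 48.6 CPM. Lif, the cytokine that holds mouse stem cells undifferentiated, rose from 5.6 and 6.83 CPM to 34.9 and 28.4 CPM.

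Caspase and death receptor genes lay on both sides. Of 26 caspase and death receptor genes 12 were higher and 6 lower, or 2 lower with a change beyond 1.5-fold asked for. Apaf1, the core of the apoptosome and a p53 target, stood at 96 and 107 CPM in WT and 338 and 338 CPM in the KO, and the death receptor gene Tnfrsf10b at 35.6 and 38.3 CPM against 103 and 111 CPM. Casp9 fell by 0.89, as did Cflar, an inhibitor of death receptor signalling, by 1.37. Interferon-stimulated genes had 10 of 28 higher, close to the share of all genes, and 4 lower, or 2 lower with a change beyond 1.5-fold asked for. Ifitm3 and Ifitm1, also known from germ and stem cells, rose by 4.37 and 2.71, while Ifit2, an interferon-induced RNA-binding protein gene, fell by 3.59. The interferon response core GAAANNGAA, on either strand, was in 12 of 27 windows of this list (44.4%) against 6.79% of all windows, in 4 of 9 members called higher, 2 of 3 called lower and 6 of 10 not called. In the MHC class I list 7 of 15 were higher and 2 lower. The peptide transporter gene Tap1 rose from 7.32 and 5.58 CPM to 84.8 and 85.4 CPM, whereas H2-K1, a class I heavy chain gene with close paralogs, fell from 26.5 and 25.2 CPM to 4.66 and 3.62 CPM.

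When a change beyond 1.5-fold was asked for, calls fell by more than 1.5 times in several lists whose members moved by small steps. Calls over all 16130 genes shrank too, from 5117 to 3042 higher and from 5220 to 2872 lower. The counts below for BAF, one-carbon metabolism, matrix proteases and potassium channels were close to these shares of all genes. Calls of lower genes became 5 of 24 in BAF, 3 of 23 in Mediator and cohesin, 3 of 12 in small RNA genes, 7 of 23 in cholesterol synthesis, 4 of 19 in one-carbon metabolism and 7 of 35 in matrix proteases. Calls of higher genes became 1 of 23 in deacetylases and NuRD, 7 of 29 in splicing regulators, 10 of 24 in glutathione and Nrf2 genes, 8 of 24 in chaperonins and heat shock genes, 5 of 21 in ER chaperones, 13 of 41 in nuclear receptors and 9 of 45 in semaphorins and slits. In potassium channels 11 of 57, in glutamate, GABA and glycine receptors 4 of 31 and in synaptic adhesion genes 2 of 37 were then higher. Both directions shrank for nucleotide synthesis (5 and 2 of 20), amino acid transporters (7 and 3 of 26), actin genes (9 and 6 of 32) and Hippo genes (7 and 4 of 29).

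Chromosome 8 stood apart from all other chromosomes. Of its 852 tested genes 441 were higher in the KO (51.8%) and 152 lower (17.8%), against 30.6% and 33.2% of the 15278 genes elsewhere. The median log2 fold change was 0.49 there and -0.02 elsewhere, and among the other autosomes and X medians lay between -0.19 (chromosome 13) and 0.07 (chromosome 7). Genes of chromosome 8 took 4.96% and 4.94% of the counts of tested genes in WT and 8.19% and 8.26% in the KO. Abundant genes weigh most in this share of counts, unlike in the median. Col4a1 alone went from 2427 and 2266 CPM to 9670 and 10140 CPM, and Col4a2 from 1234 and 1159 CPM to 5637 and 5978 CPM. In the T12h rescue, the same clone, the median difference of chromosome 8 from WT was 0.48 on the scale of log2(CPM + 0.1), against -0.02 elsewhere; both comparisons use the same WT libraries. Genes named above that lie there are Cdh1, Cdh3, Cdh5, Cdh11, Col4a1, Col4a2, Lamp1, Hmox1, Calr, Herpud1, Itgb1, Esrp2, Eif4ebp1, Tex15 and Clec18a. Several of them rose by far more than 0.49 and Cdh11 fell, from 207 and 190.2 CPM to 23.6 and 19.1 CPM. The cause of the difference was not tested.

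**Figure D5:**
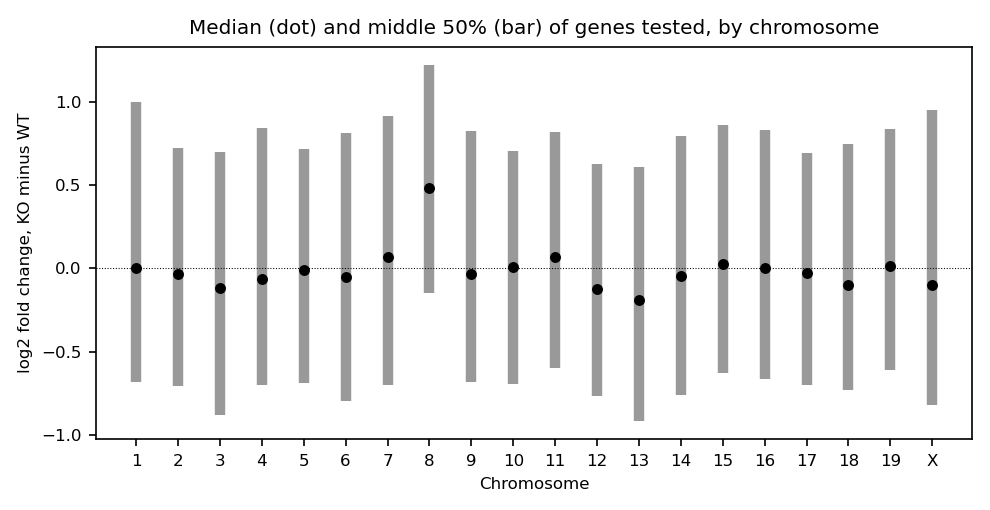
Dots are the median log2 fold change, KO minus WT, of the genes tested on each chromosome, and bars span the middle 50% of genes; chromosome Y, with 6 tested genes, is not drawn. Chromosome 8 lies at 0.49, and the others between -0.19 and 0.07.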

How the data were processed

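RNA was extracted with RNeasy columns and DNase, and libraries were made with a TruSeq kit, per the labels' protocols. The authors deposited estimated counts and FPKM per locus, per the file headers. TopHat2 2.1.1, SAMtools 1.5, deepTools, Cufflinks 2.2.1 and mm10 are listed in the submitters' processing notes. Neither the strand setting nor the gene annotation is given in these sources. The deposited estimated counts had been multiplied by 1 factor per column, which was divided out (92.0 to 92.7% of values were then whole within 0.02), and were rounded after the column pairs had been summed. Of 28432 loci, 5143 that name no gene (3.16 to 6.12% of counts) and 8 with too many fragments to quantify, 7 of them named, were left out, and 397 of the 23282 used join several symbols.

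The 8 libraries of all 4 groups entered 1 fit with edgeR 4.0.16 in R 4.3.3 (TMM scaling, filterByExpr, quasi-likelihood F-test, Benjamini-Hochberg adjustment over 16130 genes, adjusted p under 0.05), with contrast KO minus WT, 4 residual degrees of freedom and a biological coefficient of variation of 12.6%. All p-values named edgeR in the text are from this fit. The procedure was also run on simulated counts in which few genes changed, evenly up and down, with the same spread for all genes. In the real data most genes differed, so that run does not test the fit in this setting. The quality flag beside each deposited count, where it read HIDATA in any library, marked the 8 loci. DESeq2 1.42.0 on the counts, and limma 3.58.1 on log2 of the deposited FPKM values plus a pseudocount, were alternatives.

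The comparison, gene lists and marker lists were chosen with earlier results of these data known. Of 1428 listed symbols, 29 were read from loci that join several genes, 8 were not matched, 81 were too low to test and 1310 were tested. Named genes are the 5 marker genes, the 10 largest increases and 10 largest decreases among genes of at least 100 CPM, and in each list up to 4 called members of smallest adjusted p in the direction with more calls, up to 2 in the other, and the member of highest level. Promoter windows are RefSeq's (GRCm38.p6) and each motif was searched on both strands. A few genes that meet this rule are not reported here. Six6, Tap1 and Eif4ebp1 each have another locus of the same symbol, with a log2 fold change of the same sign, and the more abundant locus is given.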

Additional observations from a re-analysis of the deposited data

How the results depend on the processing

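No paired analysis was possible because the columns carry no duplicate number. Asking for a change beyond 1.5-fold (glmTreat) lowered the counts to 3042 higher and 2872 lower genes. On log2(FPKM + 1), where low genes are compressed, limma called 1863 higher and 1465 lower genes past 2-fold. With 1 WT or KO library left out, higher genes numbered 3918 to 4526 and lower genes 4594 to 5028, and past 2-fold 2251 to 2698 and 2343 to 2708. In these 4 fits the lone library is assumed to vary like the other groups. DESeq2 called 5290 higher and 4812 lower genes. Without the genes of chromosome 8 the counts were 4741 and 4993. Over 18 alternatives 46.0 to 54.5% of calls were increases (49.5% as reported). Of 324 named genes 312 were called, 262 of them under every alternative that tested them. Another 50 lost the call at least once, and 0 changed direction while called. Genes absent from a fit, such as those of chromosome 8 in the fit without it, were not scored there. Eef1a1, Kdm5b and Hsp90b1 became called under at least 1 alternative. Precision is limited most for low genes, where 3 counts over a group stand for 0.043 CPM in WT and 0.0285 CPM in the KO.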

Other observations

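More families read by symbol stem are given here as values with no test, and the genes named were picked after their values were seen. Some members of the Cyp and Slc stems, such as Cyp51 and Slc7a7, are also in the lists above. Genes named Cyp, the cytochrome P450 enzymes, had 15 of 32 tested members higher in the KO and 5 lower, all 15 by at least 2-fold. Cyp26a1, which degrades retinoic acid, stood at 21.97 and 24.04 CPM in WT and 126 and 124 CPM in the KO. Cyp26b1, with the same activity, rose from 0.915 and 0.801 CPM to 3.47 and 5.59 CPM. Cyp39a1, an oxysterol hydroxylase, fell from 20.9 and 21.2 CPM to 1.57 and 1.46 CPM.

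Genes named Il, which encode interleukins and their receptors, had 16 of 37 higher and 1 lower, mostly at low levels. Il1r1, the interleukin 1 receptor, stood at 0.388 and 0.475 CPM in WT and 5.07 and 4.61 CPM in the KO. Il6st, the shared receptor chain gp130, differed little, at 101 and 98.3 CPM against 116 and 114 CPM. Solute carriers named Slc had 145 of 306 higher and 70 lower. The mitochondrial phosphate carrier Slc25a3 rose from 302 and 364 CPM to 704 and 724 CPM, and the glucose transporter Slc2a1 fell from 960.5 and 1079 CPM to 692.5 and 712.5 CPM. Mitochondrial ribosomal proteins of the large subunit, named Mrpl, had 18 of 45 higher and 4 lower, none of them by 2-fold.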
